A study of Homo sapiens with 4 samples.

Results

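Amino acid transporter genes were followed in TPC1 cells under treatment with BGJ398, which blocks the kinases of the FGF receptors. TPC1 is a human cell line from a papillary thyroid cancer in which CCDC6 is fused to RET. The genes were taken by symbol from the solute carrier families SLC1, SLC3, SLC6, SLC7, SLC36, SLC38 and SLC43, which gave 59 of the 20372 genes in the count table. Of these, 58 are named as carriers, and SLC7A6OS is a neighbour of SLC7A6 that shares its symbol and is no carrier. The rule reads the symbol and no expression value. A filter on low counts left 31 of the 59 for testing, among 12549 tested genes in all. Statements below on change in the transporter genes are about those 31 unless another set is named.

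There were 2 libraries after 24 h and 2 after 6 h of BGJ398. All 4 came from the same line, grown in DMEM with serum, so the fusion and the inhibitor were common to both times. The dose is 100 micromolar in the labels but the same number in nanomolar in the study's methods, and this was not settled. No vehicle-treated library was analysed here, so the values compare late with early treatment and cannot show how the cells responded to the inhibitor as such. Whether the replicates were separate cultures is not stated, so the p-values cover the spread among these 4 libraries, which may be technical. In bulk RNA, fewer cells of a kind and less RNA per cell cannot be told apart.

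Carriers of these families move amino acids across the plasma membrane and the lysosomal membrane. Some couple the substrate to sodium, chloride or protons and so concentrate it, some exchange one amino acid for another, and some only let it pass down its gradient. The SLC7 light chains reach the surface bound to a heavy chain of the SLC3 family. Uptake of glutamine and leucine feeds mTORC1, the kinase complex that is switched on at the lysosome when amino acids are plentiful, and uptake of cystine feeds glutathione. When amino acids run short, the transcription factor ATF4 is known to raise several of these genes.

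Total counts were 25089167 and 24958447 in the 24 h libraries, against 25212226 and 26325512 in the 6 h libraries. Levels are given as CPM, counts relative to the library total after TMM scaling. A gene with no count could still lie at up to 0.120 CPM in the 24 h libraries and 0.122 CPM in the 6 h libraries, the highest level of 3 counts on this scale, and such limits cover counting error only. The share of counts from the mitochondrial genome was 1.68 and 2.98% at 24 h, against 1.09 and 1.4% at 6 h. Of the thyroid markers PAX8 was abundant, with a mean of 1026 CPM over all libraries, and FOXE1 and TG were at 13.9 and 14.8 CPM. NKX2-1 and TSHR had no count in any library, and SLC5A5 had 1 count in all, so several markers of differentiated thyroid cells were missing. Of the leukocyte markers CD3E was at 0, PTPRC was at 0.147 CPM and CD68, a lysosomal protein gene that other cells also use, was at 204 CPM.

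Which carriers the cells transcribed differed sharply by family. SLC43 had 3 of 3 genes tested, SLC3 2 of 2, SLC1 5 of 7, SLC38 6 of 10, SLC7 7 of 14 with SLC7A6OS counted among them, SLC36 2 of 4 and SLC6 6 of 19. A mean of at least 5 CPM was reached by 24 genes, at least 50 CPM by 11 and at least 100 CPM by 6. Of the 28 genes that were not tested, 11 had no count in any of the 4 libraries, and 7 of these were in the SLC6 family. They included SLC1A6, SLC1A7, SLC6A2, SLC6A5, SLC6A11, SLC6A18, SLC6A19, SLC6A20, SLC7A4 and SLC7A14, which hold carriers for glutamate, noradrenaline and glycine in nerve tissue and for neutral amino acids in kidney and gut. The other 17 had some counts. SLC7A8, a light chain for large neutral amino acids known from kidney, had 12 and 7 counts at 24 h, against 8 and 6 at 6 h. The remaining 16 had at most 3 counts in a library and at most 6 in all.

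To compare one gene with another, CPM was divided by the length of a representative transcript in kilobases, which was had for 58 of the 59 genes. On this scale SLC38A2, a sodium-coupled carrier of small neutral amino acids including glutamine, was highest at a mean of 114 CPM per kb over the 4 libraries. SLC1A3, a sodium-coupled glutamate and aspartate carrier best known from glia, followed at 80.3 CPM per kb, and SLC3A2, the heavy chain also called CD98, at 48.6 CPM per kb. The ranges of these 3 genes over the libraries did not overlap each other. After them came SLC7A5 at 36.3, SLC1A5 at 28.3, SLC38A1 at 26.3, SLC38A10 at 21.5, SLC6A6 at 20.7, SLC43A3 at 18.2 and SLC7A1 at 16.6 CPM per kb. Here each gene's range overlapped that of the next, although in at least 3 of 4 libraries each lay above the next. SLC38A2 and SLC1A3 together made up 39.8 and 40.3% of the summed level per kb of these genes at 24 h, and 39.1 and 37.9% at 6 h. Of the 10 highest genes in each library, 9 were shared by all 4. At the low end, SLC1A2, the main glutamate carrier of astrocytes, had 0.0593 CPM per kb and SLC3A1 0.163 CPM per kb.

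**Figure D1:**
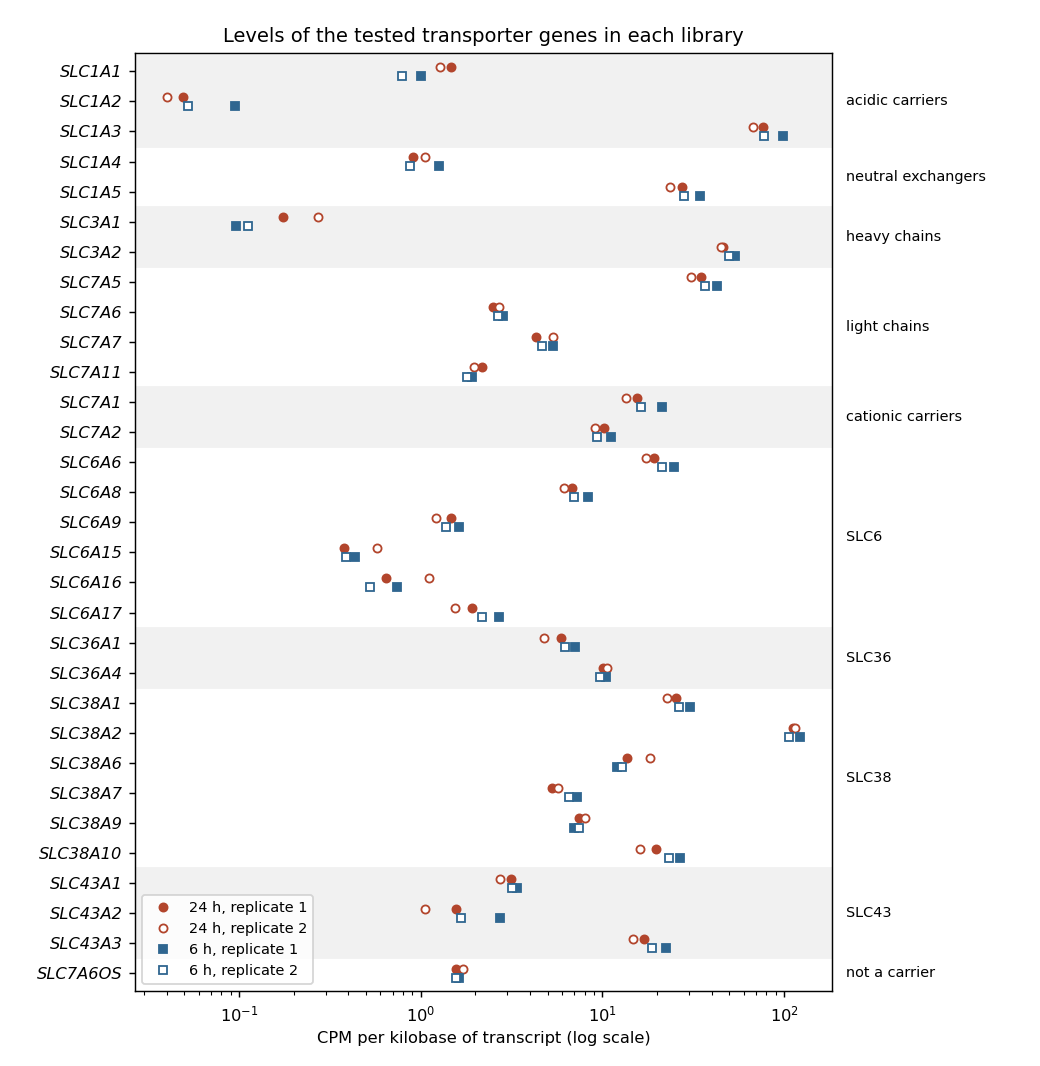
CPM per kilobase of transcript (log axis) of the 31 tested genes in each library, grouped by role, with circles for 24 h and squares for 6 h, and filled and open symbols for replicates 1 and 2. SLC38A2 is highest in every library, between 106 and 123, and SLC1A2 lowest, between 0.0401 and 0.0951.

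The core of the promoter element that ATF4 binds with C/EBP partners, and the E-box bound by TFEB, MYC and related factors, were looked up around the starts of these genes, because both kinds of factor are known to act on amino acid carriers. RefSeq windows on GRCh38.p14, running 250 bases before to 50 after each start, were at hand for 24 of the 31 tested genes, as 42 windows. The letters TGATGNAA, read on both strands, occurred in 6 of the 42 windows (14.3%), against 3.62% of 35116 windows of all genes. They lay in SLC1A3, SLC1A4, SLC1A5, SLC38A1, SLC3A2 and SLC7A1, and none of their matches overlapped one of the E-box CACGTG. That E-box, which reads the same on both strands, occurred in 7 of 42 windows (16.7%), against 7.26% of all. It lay in SLC1A5, SLC36A1, SLC38A7, SLC43A1, SLC6A16, SLC7A5 and SLC7A7. Windows of one gene can overlap or stand at different starts, as the ATF4 core and the E-box of SLC1A5 do. The 42 windows are of genes that passed the filter on low counts. Their shares and those of all genes are thus not from like sets. A match is a description of the letters and not evidence of binding. The stretches below are 30 bases in the direction of the gene, with the matched letters in capitals, and show the 6 matches to the ATF4 core and the E-boxes of SLC7A5 and SLC36A1.
SLC1A3, plus strand, chr5:36596357-36596386: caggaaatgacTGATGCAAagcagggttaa
SLC1A4, plus strand, chr2:64989381-64989410: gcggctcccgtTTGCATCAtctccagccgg
SLC1A5, minus strand, chr19:46784893-46784922: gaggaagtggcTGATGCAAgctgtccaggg
SLC38A1, minus strand, chr12:46266502-46266531: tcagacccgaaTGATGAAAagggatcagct
SLC3A2, plus strand, chr11:62881719-62881748: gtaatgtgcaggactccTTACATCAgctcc
SLC7A1, minus strand, chr13:29595663-29595692: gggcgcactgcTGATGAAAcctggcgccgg
SLC7A5, minus strand, chr16:87869620-87869649: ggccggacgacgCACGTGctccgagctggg
SLC36A1, plus strand, chr5:151447548-151447577: cgctcaagggagCACGTGacctcggcctct
SLC36A1, plus strand, chr5:151447583-151447612: gggcggtgggatCACGTGatgaggtccgga
In SLC1A4 and SLC3A2 the core stands on the opposite strand, so the capitals read as its reverse complement. The values of these genes are given with their families below.

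Between 24 h and 6 h most transporter genes lay slightly lower at 24 h, and no gene passed the edgeR test. Of the 31 genes, 22 had a log2 fold change (24 h over 6 h) below 0, which is 71.0%, against 50.0% of all tested genes, and 9 lay above 0. The median log2 fold change was -0.17, against 0.00019 for all tested genes. The edgeR quasi-likelihood test with Benjamini-Hochberg adjustment over all genes called none of the 31 (smallest adjusted p = 0.173), as it called 0% of all genes. An unadjusted p under 0.05 was reached by 8 genes that were lower and 2 that were higher, against 10.5% and 13.9% of all tested genes. Both 24 h libraries lay below both 6 h libraries in 16 of 31 genes (51.6%), against 31.5% of all tested genes, and above them in 5 (16.1%), against 31.3%. DESeq2, run as the other tool, gave an adjusted p to 15 of the 31 genes and called 1, SLC38A10, lower at 24 h, where it called 2.65% of 7410 genes lower and 5.59% higher.

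The differences were small. A log2 fold change over 1 in size was seen only in SLC3A1, which had very few counts, and 12 of the 31 lay within 0.2 of 0. Among the 11 genes with at least 50 CPM, 10 lay lower at 24 h and the median was -0.27, against -0.048 for the 4700 genes of all kinds at that level, of which 56.7% lay lower. Summed over all 59 genes, the level was 2109 and 1974 CPM at 24 h and 2527 and 2143 CPM at 6 h, or 2041 ± 95.9 CPM and 2335 ± 271 CPM (SD, n = 2 each). The 2 times did not overlap in this sum, but the 6 h libraries differed from each other by more than the lower of them differed from the higher 24 h library.

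The replicates of a time also differed in one direction. In replicate 2 relative to replicate 1 the median log2 difference over the 31 genes was -0.145 at 24 h, where 19 genes were lower, and -0.213 at 6 h, where 28 were lower, against 0.001 and -0.007 for all tested genes. The spread between replicates of one time was thus about as large as the difference between the times. Replicate and time differences also went together across all tested genes. Replicate 2 minus replicate 1, averaged over the times, correlated with 24 h minus 6 h at 0.651. The SDs of these differences were 0.25 and 0.313 on the log2 scale. Over the same 31 genes the median difference between the times was -0.11 with 6 h replicate 1 left out and -0.28 with 24 h replicate 1 left out. The 31 genes had longer transcripts than tested genes at large, with a median of 4491 bases against 3374, and a GC content of 50.2% against 48.1%. With a trend on length and GC removed from each library the median was -0.14, and it was -0.019 for all genes. The mitochondrial share given above was higher in both 24 h libraries than in both 6 h libraries, and its part in these differences was not tested.

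**Figure D2:**
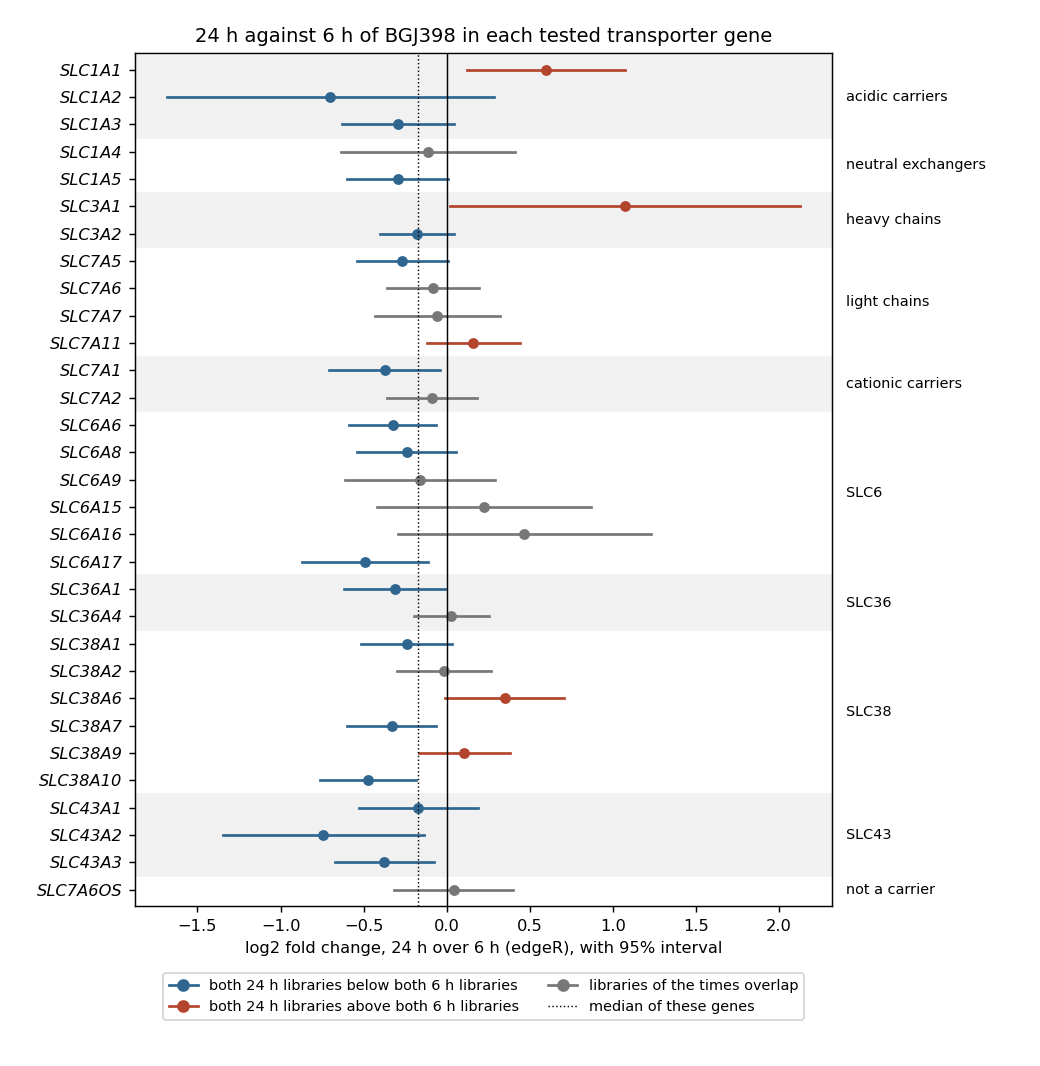
Log2 fold change of 24 h over 6 h from edgeR for each of the 31 tested genes, with its 95% interval and coloured by whether the libraries of the times overlap. The dotted line is their median of -0.17. The points lie between -0.74 (SLC43A2) and 1.07 (SLC3A1), and 22 of them lie left of 0.

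Among the acidic carriers, which take up glutamate and aspartate with sodium, SLC1A3 was the one expressed at a high level (ENSG00000079215, hg19 chromosome 5, 36606457 to 36688436). It was at 302 and 263 CPM at 24 h, against 388 and 304 CPM at 6 h. Both 24 h libraries were below both 6 h libraries, but the second 6 h library stood nearly level with the first 24 h library. Its log2 fold change was -0.29 ± 0.14 (SE), with a 95% interval of -0.63 to 0.04 (edgeR adjusted p = 0.245). It was -0.33 with the length and GC trend removed. SLC1A1, which also carries cysteine, went the other way at a low level (ENSG00000106688, hg19 chromosome 9, 4490444 to 4587469). It was at 5.39 and 4.70 CPM at 24 h and at 3.75 and 2.93 CPM at 6 h, so the 24 h libraries were the higher ones. This corresponded to a log2 fold change of 0.60 ± 0.21 (SE, interval 0.12 to 1.07, edgeR adjusted p = 0.174), or 0.56 with the trend removed. SLC1A1 shares 34084 bases of its span with SPATA6L, which was at 0.854 CPM. SLC1A2 had 15 and 12 counts at 24 h, against 28 and 17 at 6 h.

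The neutral exchangers swap small neutral amino acids across the plasma membrane in the presence of sodium. SLC1A5, the main glutamine exchanger of many cancer lines (ENSG00000105281, hg19 chromosome 19, 47278140 to 47291851), was at 78.8 and 67.8 CPM at 24 h, against 99.1 and 81.0 CPM at 6 h. The higher 24 h library almost reached the lower 6 h library. Its log2 fold change was -0.30 ± 0.13 (SE, interval -0.60 to 0.01, edgeR adjusted p = 0.209). It was -0.14 with the length and GC trend removed, -0.145 without 6 h replicate 1 and -0.19 without 24 h replicate 2. SLC1A4, an exchanger for alanine, serine and cysteine, was low and its libraries overlapped, at 4.16 and 4.82 CPM at 24 h against 5.75 and 3.97 CPM at 6 h. Its log2 fold change of -0.11 turned to 0.046 with the trend removed.

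Of the heavy chains, SLC3A2 was abundant and SLC3A1 was nearly silent. SLC3A2 (ENSG00000168003, hg19 chromosome 11, 62623518 to 62656352) was at 86.6 and 85.1 CPM at 24 h, against 101 and 93.7 CPM at 6 h. SLC3A2 thus had a log2 fold change of -0.18 ± 0.10 (SE, interval -0.40 to 0.04, edgeR adjusted p = 0.270), or -0.15 with the length and GC trend removed. SLC3A1, the partner of the cystine carrier of the kidney, had only 13 and 20 counts at 24 h, against 7 and 9 at 6 h. That gave the largest log2 fold change of the 31 genes, 1.07 ± 0.46 (SE, interval 0.02 to 2.13), which edgeR did not call. SLC3A1 overlaps PREPL by 5214 bases, and PREPL was at 90.1 CPM, so the few counts of SLC3A1 may include reads from PREPL unless strand was used in the counting.

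SLC7A5 was the leading light chain in every library. It carries leucine and other large neutral amino acids in exchange for glutamine and forms the LAT1 transporter with SLC3A2. SLC7A5 (ENSG00000103257, hg19 chromosome 16, 87863629 to 87903094) was at 159 and 141 CPM at 24 h and at 194 and 167 CPM at 6 h. The times did not overlap, and the log2 fold change was -0.27 ± 0.12 (SE, interval -0.54 to 0.01, edgeR adjusted p = 0.211). With the length and GC trend removed it was -0.050. Leaving out 6 h replicate 1 gave -0.16. Light chain levels per kilobase were summed over SLC7A5, SLC7A6, SLC7A7, SLC7A8, SLC7A10 and SLC7A11. SLC7A5 made up 79.3 and 75.4% of that sum at 24 h, and 80.6 and 79.9% at 6 h. The level of SLC3A2 per kilobase was 1.04 and 1.10 times that sum at 24 h, and a ratio of 1.01 and 1.08 at 6 h. These ratios rest on the representative transcripts, of 1885 bases for SLC3A2 and 4556 for SLC7A5. Whether the cells use these transcripts was not tested. Without division by length, SLC3A2 had a mean of 91.6 CPM over the libraries and SLC7A5 of 165 CPM.

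The other light chains differed little. SLC7A11, which brings in cystine in exchange for glutamate (ENSG00000151012, hg19 chromosome 4, 139085251 to 139163503), was at 21.0 and 19.0 CPM at 24 h, against 18.4 and 17.4 CPM at 6 h. That is a log2 fold change of 0.16 ± 0.12 (SE, interval -0.12 to 0.44, edgeR adjusted p = 0.409), and removal of the length and GC trend gave 0.055. It was 0.079 without 24 h replicate 1. The ratio of SLC7A5 to SLC7A11 per kilobase was 16.0 and 15.7 at 24 h, against 22.3 and 20.4 at 6 h. This ratio was not tested, it was not corrected for the trend, and the transcripts of SLC7A5 and SLC7A11 differ in GC content (61.2% and 35.4%). SLC7A6 and SLC7A7, which exchange arginine and lysine for neutral amino acids, overlapped between the times. SLC7A6 was at 15.7 and 16.8 CPM at 24 h against 17.7 and 16.8 CPM at 6 h, and SLC7A7 at 8.96 and 11.1 CPM at 24 h against 11.1 and 9.72 CPM at 6 h. SLC7A6 shares 17317 bases of its span with SLC7A6OS, which was at 6.58 and 7.11 CPM at 24 h and 6.77 and 6.53 CPM at 6 h.

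Transcripts of both common carriers of cationic amino acids, which take up arginine, lysine and ornithine, were present. SLC7A1 (ENSG00000139514, hg19 chromosome 13, 30083547 to 30169825) was at 114 and 99.1 CPM at 24 h, against 156 and 119 CPM at 6 h. Its first 6 h library was well above the other 3, and the log2 fold change of -0.37 ± 0.14 (SE, interval -0.71 to -0.04, edgeR adjusted p = 0.182) became -0.17 without that library and -0.16 with the length and GC trend removed. SLC7A2 overlapped between the times, at 77.4 and 69.8 CPM at 24 h and 85.0 and 71.6 CPM at 6 h, with a log2 fold change of -0.090 ± 0.12 (SE, interval -0.36 to 0.18). The level of SLC7A1 per kilobase was 1.52 and 1.47 times that of SLC7A2 at 24 h, and 1.91 and 1.73 times at 6 h. This ratio was not tested or corrected for the trend, and the transcripts of SLC7A1 and SLC7A2 differ in GC content (52.7% and 41.4%). With the trend removed the log2 fold change of SLC7A2 was -0.070, beside the -0.16 of SLC7A1. SLC7A3, the third known cationic carrier, had 1 count in the 4 libraries.

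The SLC6 family depends on sodium and chloride and holds the carriers of many neurotransmitters. In these cells its leading members were those for osmolytes and energy metabolism. SLC6A6, the taurine carrier (ENSG00000131389, hg19 chromosome 3, 14444076 to 14530857), was at 125 and 114 CPM at 24 h and 161 and 139 CPM at 6 h. Its log2 fold change was -0.33 ± 0.11 (SE, interval -0.59 to -0.07, edgeR adjusted p = 0.174), and removal of the length and GC trend gave -0.15. Leaving out 6 h replicate 1 gave -0.22. SLC6A8, the creatine carrier, was at 26.6 and 24.3 CPM at 24 h, against 32.8 and 27.4 CPM at 6 h, and its log2 fold change of -0.24 was -0.031 with the trend removed, -0.107 without 6 h replicate 1 and -0.37 without 6 h replicate 2. SLC6A17, a carrier of neutral amino acids known from synaptic vesicles, was at 12.2 and 9.96 CPM at 24 h and 17.2 and 14.1 CPM at 6 h, and its times did not overlap. The log2 fold change of SLC6A17 was -0.49 ± 0.16 (SE, interval -0.87 to -0.12, edgeR adjusted p = 0.173), or -0.26 with the trend removed. The glycine carrier SLC6A9, SLC6A15 and SLC6A16 lay below 5 CPM on average and their times overlapped. Their log2 fold changes were, in that order, -0.16 ± 0.19, 0.22 ± 0.28 and 0.47 ± 0.33 (SE).

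Of the proton-coupled SLC36 family, SLC36A1 and SLC36A4 were expressed. SLC36A1, which exports small amino acids from lysosomes (ENSG00000123643, hg19 chromosome 5, 150816607 to 150871942), was at 34.1 and 27.7 CPM at 24 h against 40.6 and 36.1 CPM at 6 h. The times did not overlap, and the log2 fold change was -0.31 ± 0.13 (SE, interval -0.62 to -0.0018, edgeR adjusted p = 0.203). It was -0.14 with the length and GC trend removed, -0.17 without 24 h replicate 2 and -0.47 without 24 h replicate 1. SLC36A4, a carrier of proline and tryptophan, overlapped between the times at 60.8 and 63.8 CPM at 24 h and 63.3 and 59.0 CPM at 6 h. Its log2 fold change of 0.027 ± 0.10 (SE) had an interval of -0.20 to 0.25 and turned to -0.149 with the trend removed.

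The sodium-coupled SLC38 family held the most abundant transporter and the one gene that DESeq2 called. SLC38A2 (ENSG00000134294, hg19 chromosome 12, 46751972 to 46766650) was at 539 and 549 CPM at 24 h, against 591 and 509.6 CPM at 6 h. The 24 h libraries lay between the 6 h libraries. The log2 fold change was -0.016 ± 0.12 (SE), with an interval of -0.30 to 0.27, and it was -0.17 with the length and GC trend removed. SLC38A1, its close relative, was at 206 and 184 CPM at 24 h and 247 and 214 CPM at 6 h, with a log2 fold change of -0.24 ± 0.12 (SE, interval -0.52 to 0.03, edgeR adjusted p = 0.242), or -0.13 without 6 h replicate 1. Per kilobase SLC38A2 exceeded SLC38A1 by 4.42 and 5.05 times at 24 h, and 4.03 times in both 6 h libraries. This ratio was not tested or corrected for the trend. With the trend removed the log2 fold change of SLC38A1 was -0.23, beside the -0.17 of SLC38A2.

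SLC38A10, a poorly characterised member of the family (ENSG00000157637, hg19 chromosome 17, 79218800 to 79269347), was at 88.5 and 72.9 CPM at 24 h, against 119 and 105 CPM at 6 h. The highest 24 h library stayed below the lowest 6 h library, and the means were 80.7 ± 11.1 CPM and 112 ± 10.3 CPM (SD, n = 2 each). The log2 fold change was -0.47 ± 0.13 (SE, interval -0.76 to -0.18). It was called lower at 24 h by DESeq2 (adjusted p = 0.0285) and not by edgeR (adjusted p = 0.173). DESeq2 still called it after 24 h replicate 1 was left out (adjusted p = 0.00365), but not after 6 h replicate 2 was (adjusted p = 0.0816). It also did not call it after 24 h replicate 2 or 6 h replicate 1 was left out (both adjusted p at least 0.999). After removal of the length and GC trend it stood at -0.25 on the log2 scale.

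The lysosomal and less studied members of SLC38 were lower in level and mixed in direction. SLC38A7, which releases glutamine from lysosomes, was at 21.5 and 23.0 CPM at 24 h and 29.5 and 26.5 CPM at 6 h, with a log2 fold change of -0.33 ± 0.12 (SE, interval -0.60 to -0.06, edgeR adjusted p = 0.174), or -0.155 with the length and GC trend removed. SLC38A9, the lysosomal arginine sensor that signals to mTORC1, was at 18.8 and 20.2 CPM at 24 h and 17.6 and 18.7 CPM at 6 h. This gave a log2 fold change of 0.11 ± 0.12 (SE, interval -0.17 to 0.38), which turned to -0.145 with the trend removed and stood at 0.052 with 24 h replicate 2 left out or 0.058 with 6 h replicate 1 left out. SLC38A6 was higher at 24 h, at 21.8 and 29.3 CPM, than at 6 h, at 19.5 and 20.6 CPM. Its log2 fold change of 0.35 ± 0.15 (SE, interval -0.01 to 0.71, edgeR adjusted p = 0.212) became 0.12 without 24 h replicate 2, and with the length and GC trend removed it was -0.096. SLC38A6 overlaps TRMT5 by 245 bases.

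All 3 genes of SLC43 had both 24 h libraries below both 6 h libraries, as did 31.5% of all tested genes. SLC43A2, which lets large neutral amino acids pass without sodium (ENSG00000167703, hg19 chromosome 17, 1472561 to 1532180), was at 12.8 and 8.60 CPM at 24 h, against 22.2 and 13.6 CPM at 6 h. The libraries of each time lay far apart, and the lower 6 h library stood just above the higher 24 h library. The log2 fold change was -0.74 ± 0.26 (SE, interval -1.35 to -0.14, edgeR adjusted p = 0.174), the most negative of the 31. It was -0.35 without 6 h replicate 1, -0.48 without 24 h replicate 2 and -0.51 with the length and GC trend removed. SLC43A3, which is linked to the transport of purine bases, was at 44.5 and 38.6 CPM at 24 h and 59.0 and 48.9 CPM at 6 h. The log2 fold change of SLC43A3 was -0.38 ± 0.13 (SE, interval -0.67 to -0.08, edgeR adjusted p = 0.174), and -0.33 with the length and GC trend removed or -0.235 without 6 h replicate 1. SLC43A1, a relative of SLC43A2 with similar substrates, was at 7.89 and 6.87 CPM at 24 h and 8.56 and 8.05 CPM at 6 h. Its log2 fold change was -0.17 ± 0.15 (SE, interval -0.53 to 0.19, edgeR adjusted p = 0.491), or -0.074 with the trend removed. With 3 genes, the shared direction is a description only.

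**Figure D3:**
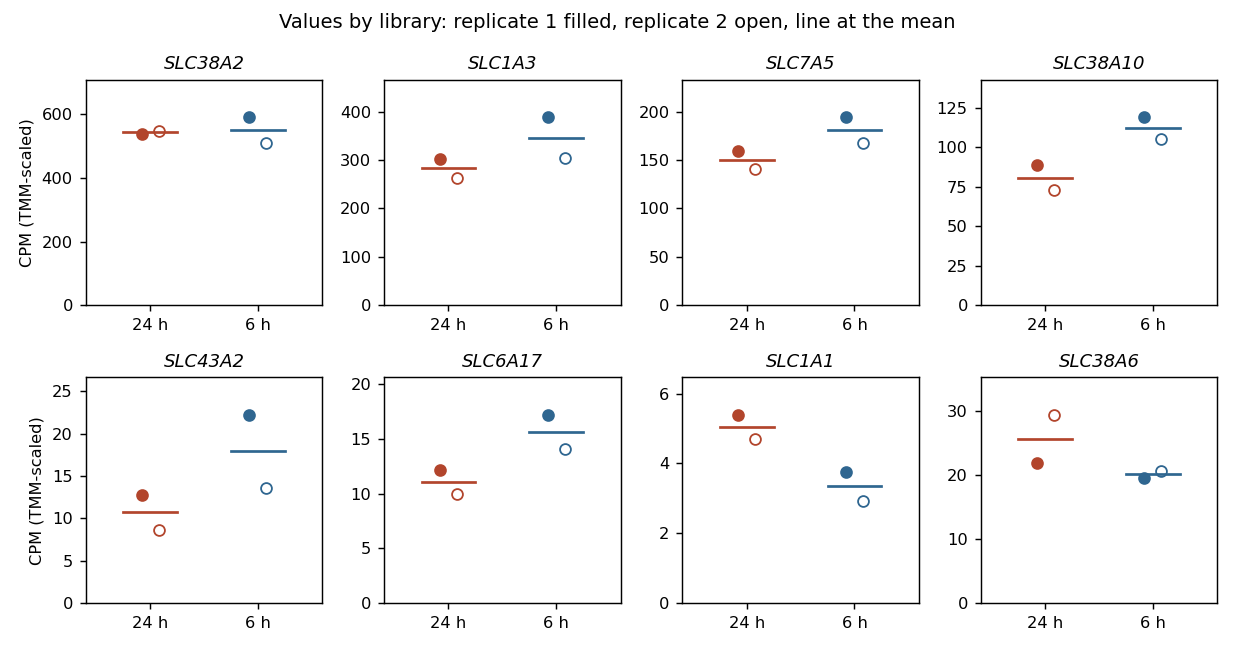
TMM-scaled CPM of 8 transporter genes in each library, with 24 h on the left and 6 h on the right of each panel and a line at the mean of the 2 libraries. SLC38A2 overlaps between the times at a mean of 544 at 24 h and 550.1 at 6 h, SLC38A10 and SLC43A2 are lower at 24 h, and SLC1A1 is higher.

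Direction held for most genes when single libraries were left out. With 24 h replicate 1 left out 30 of the 31 genes kept their sign, with 24 h replicate 2 left out 28 did, with 6 h replicate 1 left out 27 did and with 6 h replicate 2 left out 30 did. Where the times do not overlap, the sign is all but fixed. With the length and GC trend removed 26 of the 31 kept their sign. Sizes moved more. Without each library in turn SLC43A2 ranged from -1.06 to -0.35, SLC38A10 from -0.63 to -0.34, SLC7A1 from -0.56 to -0.17 and SLC1A3 from -0.46 to -0.11. The sign turned with some library left out in SLC1A4, SLC6A15, SLC7A2, SLC7A7, SLC36A4, SLC38A2 and SLC7A6OS.

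**Figure D4:**
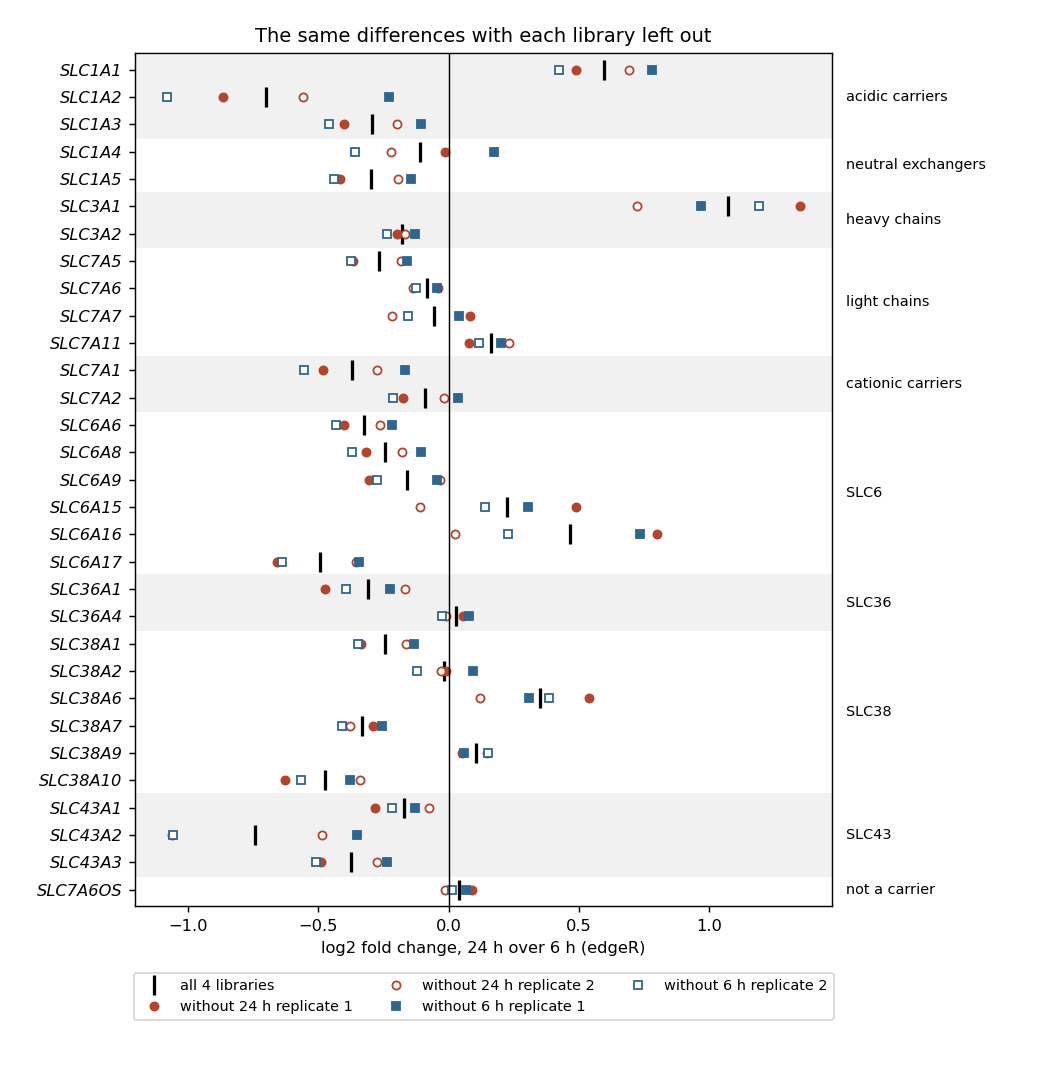
Log2 fold change of 24 h over 6 h for each of the 31 tested genes with all 4 libraries (bar) and with each library left out in turn (circles for a 24 h library, squares for a 6 h library). SLC38A10 stays between -0.63 and -0.34 and SLC38A2 runs from -0.12 to 0.093.

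Genes that respond to amino acid supply or use amino acids were examined beside the carriers. In the ATF4 response 12 of 18 genes lay lower and 6 higher at 24 h. Their median was -0.073 on the log2 scale, and edgeR called none of the 18 and DESeq2 none of the 13 to which it gave an adjusted p. An unadjusted edgeR p under 0.05 was reached by 4, where 10.5% of all tested genes were lower and 13.9% higher at that level. The median was -0.167 with 24 h replicate 1 left out, -0.174 with 6 h replicate 2 left out and -0.038 with 24 h replicate 2 left out. DDIT4, an inhibitor of mTORC1, was at 859 and 797 CPM at 24 h and 886 and 797 CPM at 6 h. ATF4 itself was at 385 and 423 CPM at 24 h against 344 and 405 CPM at 6 h, and overlapped. CEBPB, a C/EBP factor, was at 168 and 148 CPM at 24 h, below its 208 and 196 CPM at 6 h, with a log2 fold change of -0.35 ± 0.11 (SE, edgeR adjusted p = 0.173).

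Of the genes for mTORC1 and its sensing of amino acids at the lysosome, 9 of 20 lay lower and 11 higher, with a median of 0.038. No gene was called by edgeR, and 12 of 20 had an unadjusted p under 0.05, beside the 10.5% lower and 13.9% higher of all tested genes. DESeq2 gave an adjusted p to 13 and called 2 of them higher, beside 5.59% of 7410 genes. The medians ran from 0.048 to 0.090 over the 4 fits that left out a library. Both genes called by DESeq2 belong to the Ragulator complex, which holds the Rag GTPases on the lysosome. LAMTOR5 was at 88.5 and 118 CPM at 24 h, against 68.7 and 75.8 CPM at 6 h (log2 fold change 0.51 ± 0.14, SE, DESeq2 adjusted p = 0.0306). LAMTOR3 was at 59.5 and 80.7 CPM at 24 h, against 45.0 and 52.4 CPM at 6 h (log2 fold change 0.52 ± 0.16, SE, DESeq2 adjusted p = 0.0380). Both calls were lost with 24 h replicate 2 or 6 h replicate 1 left out, and that of LAMTOR5 also with 6 h replicate 2 left out, where LAMTOR3 had no adjusted p. Over the fits that left out a library the edgeR log2 fold change ran from 0.293 to 0.694 for LAMTOR5 and from 0.289 to 0.719 for LAMTOR3, lowest in both without 24 h replicate 2. After removal of the length and GC trend, the log2 fold change was 0.013 for LAMTOR5, which has a transcript of 620 bases, and 0.33 for LAMTOR3.

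Amino acid carriers of other families showed 10 of 14 genes lower and 4 higher, with a median of -0.112. No gene was called by edgeR, nor by DESeq2 among the 9 to which it gave an adjusted p, and 2 had an unadjusted edgeR p under 0.05, beside the same 10.5% and 13.9% of all tested genes. The median was -0.209 with 24 h replicate 1 left out, -0.071 with 24 h replicate 2 left out and -0.056 after removal of the length and GC trend. The most abundant were SFXN3 and SFXN1, mitochondrial carriers of serine, and SLC25A44, a mitochondrial carrier of branched-chain amino acids. SFXN3 was at 181 and 171 CPM at 24 h against 182 and 185 CPM at 6 h, SFXN1 at 109 and 114 CPM against 99.9 and 104 CPM, and SLC25A44 at 76.5 and 75.8 CPM against 89.0 and 80.4 CPM. In glutamine and glutathione metabolism 8 of 12 genes lay lower and 4 higher, with a median of -0.079. There was no call by edgeR, nor by DESeq2 among the 10 with an adjusted p, and none had an unadjusted edgeR p under 0.05. Leaving out 24 h replicate 2 gave a median of 0.000, leaving out 6 h replicate 1 gave -0.033, and removal of the trend gave -0.042. GPX4, which clears lipid peroxides with glutathione, was at 342 and 351 CPM at 24 h and 317 and 304 CPM at 6 h. GLUD1, an enzyme that breaks down glutamate, was at 238 and 221 CPM at 24 h, against 227 and 224 CPM at 6 h.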

How the data were processed

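RNA-seq of TPC1 cells was deposited by the authors as a table of whole-number read counts per gene with hg19 coordinates and no normalization. The submitters' notes name STAR 2.3, hg19 and DESeq2. Reads were single-end per the labels but paired-end, with a later STAR release, per the methods. How reads were counted, with which annotation and strand setting, is not given in the sources used here, so overlapping genes may share reads. Levels are TMM-scaled CPM. Genes passing filterByExpr entered glmQLFit and glmQLFTest in edgeR 4.0.16 (R 4.3.3, time as the only term, Benjamini-Hochberg threshold 0.05), and DESeq2 1.42.0 was the alternative. SE and 95% intervals come from the edgeR fit. Transcript length and GC were those of the canonical transcript in GENCODE, matched by Ensembl identifier, and their trend was removed by loess (span 0.5) as an alternative. Other alternatives were DESeq2 size factors, no filter, a mean of at least 10 CPM, a replicate block and leaving out each library. Steps were tested on simulated data. Replicates were distinct libraries (chi-square per degree of freedom of 32.7 at 24 h, 16.5 at 6 h). Transporter genes with a mean of at least 5 CPM, any gene called by edgeR, by DESeq2 or by edgeR with the block (which adds SLC1A1) and both heavy chains were named, and from each related list the DESeq2 calls or otherwise the 3 most abundant genes. The genes and lists were chosen with earlier results of these data known. A few of these genes and markers are left out of the text.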

Additional observations from a re-analysis of the deposited data

How the results depend on the processing

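The edgeR test called 0 genes of all tested and 0 transporter genes, and this depended on the fit. DESeq2 called 610 genes and 1 transporter gene. With a replicate block edgeR called 4565 of 12549 tested genes and 16 of the 31 transporter genes (14 lower, 2 higher). With a trend on length and GC removed as well it called 2903 of the 12549 and 6 of the 31. In the related lists the block called 6 of 18 genes of the ATF4 response and 12 of 20 of mTORC1 sensing. It called 2 of 14 other carriers and 2 of 12 genes of glutamine and glutathione use. With that trend removed the counts were, in the same order, 2, 7, 1 and 3. These counts are to be read beside the calls over all tested genes in the same fits. Same-numbered replicates deviated together with a correlation of 0.419, but with 2 pairs and no label saying what a number shares, the numbers were not taken as a pairing. Leaving out each library gave 1 to 3126 genes and 0 to 10 transporter genes by edgeR, and 0 to 2 transporter genes by DESeq2. The fits by DESeq2 without a library were added after seeing the data. The fewest calls came without 24 h replicate 2 and without 6 h replicate 1. Without each library the median log2 fold change ran from -0.281 to -0.077 over the transporter genes tested in each fit, and to -0.107 over the same 31. It was -0.144 with that trend removed and -0.235 among the 22 genes with a mean of at least 10 CPM. With the trend removed 26 of 31 kept their sign. SLC1A4 turned to 0.046, SLC38A6 to -0.096, SLC38A9 to -0.145, SLC7A6 to 0.037 and SLC36A4 to -0.149, and with the block added the last 4 were at -0.094, -0.146, 0.036 and -0.148. SLC38A2 was at 0.005 under the filter on 10 CPM. Without each library SLC38A2 ran from -0.121 to 0.093, SLC7A2 from -0.211 to 0.037, SLC7A7 from -0.218 to 0.082, SLC36A4 from -0.026 to 0.077 and SLC7A6OS from -0.015 to 0.089. The cause of these shifts was not tested. A fit without a library assumes that the lone library of its time varies like the other pair. Whether differences of the size seen here passed a test depended on the tool and on the library left out, and the 28 transporter genes at or near 0 were not tested.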
